A study of Danio rerio with 9 samples.

Results

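T lymphoid cells were sought among 30917 barcodes, each standing for 1 captured cell, by their transcripts of rag1, rag2, lck, zap70, cd4-1 and cd8a. Barcodes were chosen by these measured values. A barcode was taken when it had at least 500 transcript molecules counted by unique molecular identifier (UMI), at least 200 genes and at most 20% mitochondrial UMIs. It also needed at least 2 of the 6 markers with at least 3 UMIs in sum, and under 10 UMIs of the neutrophil genes mpx, lyz and npsn together. Of 29994 barcodes that passed the depth, gene and mitochondrial limits, 73 met the marker rule and are called marker-positive here, and 29921 did not. The 6 markers and 3 neutrophil genes chose these barcodes, so their values are given as a description, with no test.

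T lymphocytes arise from blood progenitors that enter the thymus, rearrange their antigen receptor genes there and then mature. The recombinase made of Rag1 and Rag2 cuts the receptor genes, Notch signals commit the progenitor to the T lineage, and the chemokine receptor Ccr9 takes progenitors towards thymic Ccl25. The kinases Lck and Zap70 then pass on signals of the assembled receptor, with Cd4 and Cd8 as co-receptors of helper and cytotoxic cells. Zebrafish larvae hold their first T cells in the thymus, and the transcription factor Runx1 is needed to form the blood stem cells of the definitive lineage in vertebrates.

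All cells carried tg(cd41:GFP), a reporter of the thrombocyte and stem cell integrin gene itga2b, and were sorted for a low GFP signal from zebrafish of strain EK. The groups were runx1-/- animals (del8, hg96, a deletion of 8 bp within the gene) and WT animals at 2.5, 6, 10 and 16 days post fertilization (dpf), with the 16 dpf runx1-/- cells in 1 library labelled bloodless and 1 labelled recovered. Each of the 9 groups was 1 library, and the labels used here do not give the number of animals in it or define bloodless and recovered. The labels used here give the sort and not the organ that a cell came from.

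The libraries held 5166313 to 94476178 UMIs, and the median barcode that passed had 4276 to 13353 UMIs. Levels below are UMIs summed over a class of barcodes and scaled to 1000000 UMIs (CPM). The level of runx1 itself in the barcodes outside the marker rule was 0.247 to 9.72 CPM in the 5 runx1-/- libraries and 0.0358 to 1.93 CPM in the 4 WT libraries. The counts are tags of transcript ends and a deletion of 8 bp need not remove the tag, so runx1 does not check the genotype labels. The 73 marker-positive barcodes held 1 UMI of runx1, in WT at 6 dpf. None of the 73 barcode sequences occurred in another library, among 112 sequences that did.

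The label T lymphoid was checked against genes outside the rule, and for 37 of the 73 barcodes germ cell genes went against it. These 37 carried 14 to 363 UMIs (median 136) of 6 germ cell genes, among them ddx4, piwil1 and dazl, which encode an RNA helicase, a piRNA-binding protein and an RNA-binding protein of germ cells. The other 36 had 0 UMIs of the 6 genes. The marker-positive barcodes are therefore described throughout as germ-positive (37) and germ-negative (36), a division made after their values were seen and given with no test. The germ-positive barcodes had a median of 30589 UMIs and 6315 genes, against 13210 UMIs and 1987 genes in the germ-negative barcodes and 10703 UMIs in the 29921 other barcodes. Their part in the results below was not tested, except that the share of barcodes is also given without them.

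By library, the germ-positive barcodes numbered 16 in runx1-/- bloodless, 7 in runx1-/- recovered and 14 in WT, all at 16 dpf. They made up 82.1% of the 28 runx1-/- and 48.3% of the 29 WT marker-positive barcodes of that age. The germ-negative barcodes numbered 2 in runx1-/- bloodless, 3 in runx1-/- recovered and 15 in WT at 16 dpf. The remaining 16 came from WT animals, 1 at 2.5 dpf, 14 at 6 dpf and 1 at 10 dpf. No marker-positive barcode was found in runx1-/- at 2.5, 6 or 10 dpf.

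**Figure D1:**
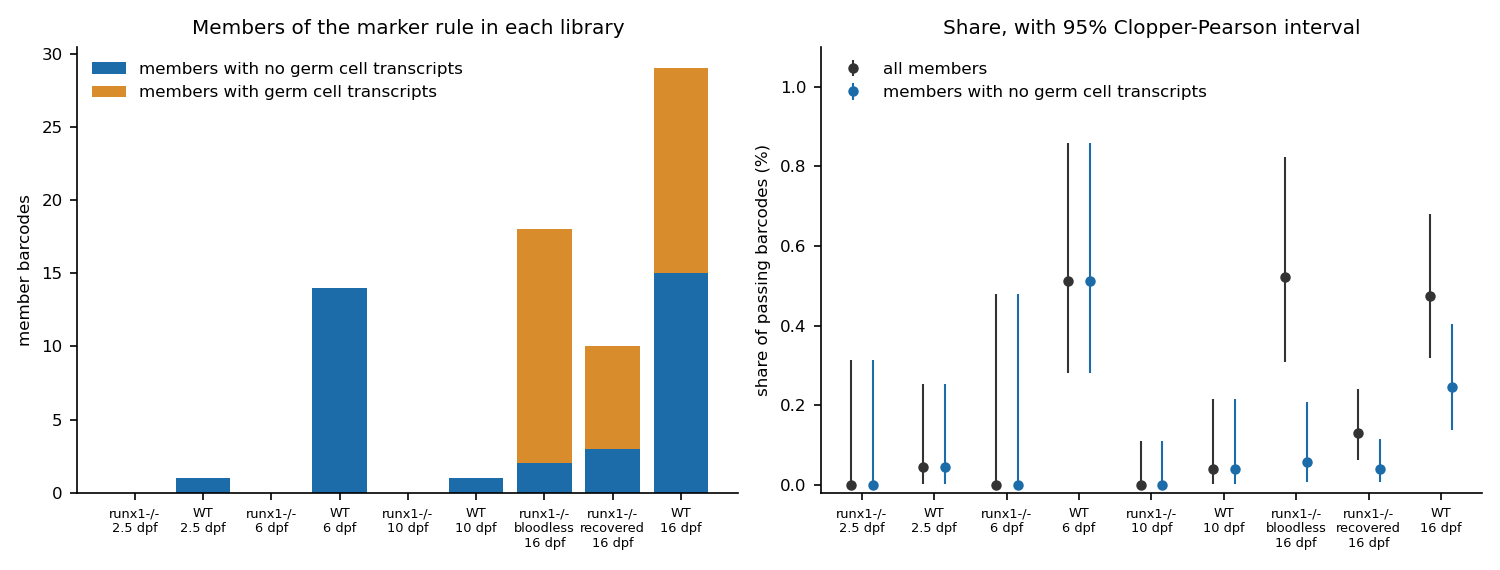
Number of marker-positive barcodes in each library, split into those with and without germ cell transcripts (bars), and their percentage of the barcodes that passed with the 95% exact binomial interval (points). Germ-positive barcodes occur at 16 dpf, and the 6 dpf barcodes of WT are all germ-negative.

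The 6 markers divided between the 2 kinds of barcode. cd4-1, the Cd4 co-receptor, had 56 UMIs in 34 of the 37 germ-positive barcodes and 2 UMIs in 2 of the 36 germ-negative ones. lck was found in 29 of 37 germ-positive (42 UMIs) and 24 of 36 germ-negative barcodes (41 UMIs). zap70 was found in 16 of 37 germ-positive (22 UMIs) and 30 of 36 germ-negative barcodes (47 UMIs). The recombinase gene rag1 had 14 UMIs in 6 germ-positive barcodes and 102 UMIs in 23 germ-negative ones. lck and cd4-1 were found together in 26 of the 37 germ-positive barcodes.

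Germ cell barcodes outside the rule had the same 2 transcripts at a level above the rest. Over the 1300 barcodes outside the rule that had at least 5 UMIs in sum of 2 or more germ cell genes, lck reached 5.73 CPM, cd4-1 8.17 CPM and zap70 3.71 CPM. Over the 28621 other barcodes without that germ signature, lck stood at 0.218 CPM, cd4-1 at 0.0494 CPM and zap70 at 1.07 CPM. Among all 1337 germ cell barcodes the marker-positive ones were 37. Of the germ-positive barcodes, 2 of WT at 16 dpf had at least 4 UMIs of rag1. The first had 22377 UMIs with 14 of germ cell genes, rag1 at 4, lck at 4 and ccr9a at 50 UMIs, and was among the highest doublet scores of its library. The second had 37483 UMIs with 148 of germ cell genes, rag1 at 6, cd8a at 4, cd8b at 2 and ccr9a at 8 UMIs.

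Most defining markers of B lymphoid cells, and those of macrophages, were at 0 in the 36 germ-negative barcodes, while genes that several blood cell types share were present. The B lymphoid genes cd79a, cd79b, pax5, ighz, igic1s1, blnk and ebf1a and the macrophage genes mpeg1.1, marco, c1qa, c1qb, c1qc, csf1ra and mfap4 were all at 0 UMIs. The immunoglobulin gene ighm, listed as ighv1-4, was not. It gave 4 UMIs in 3 germ-negative barcodes of the 4 libraries with at least 10 marker-positive barcodes. The thymic epithelial genes foxn1 and ccl25a were at 0 as well, as was itga2b, the gene of the sorted reporter. Other genes of the thymic epithelial list were found. cldnb gave 8 UMIs in 1 germ-negative barcode, epcam 6 UMIs in 1 and prss16 5 UMIs in 4. In the same 4 libraries krt8 gave 4 UMIs in 2 germ-negative barcodes and krt4 2 UMIs in 2. The whole lists held 30 UMIs in 5 of 17 genes for B lymphoid, 37 UMIs in 9 of 14 for NK-like and innate lymphoid, 54 UMIs in 10 of 19 for erythroid and 146 UMIs in 3 of 15 for macrophage. The neutrophil list held 111 UMIs in 5 of 12 genes and the stem and progenitor list 216 UMIs in 12 of 15. The macrophage sum was mostly cd63, a lysosomal membrane gene, with 115 UMIs in 27 of 36 barcodes (253 CPM, against 350 CPM in the other barcodes), and csf1rb, with 26 UMIs in 12. The neutrophil sum was mostly srgn, a granule proteoglycan gene, with 97 UMIs in 16 of 36 barcodes (214 CPM, against 368 CPM in the other barcodes). The part of these genes in the results was not tested. The highest count of the 3 neutrophil genes was 3 UMIs in a germ-negative and 7 in a germ-positive barcode, and 0 barcodes were lost to the limit of 10. Mitochondrial UMIs reached 3.26% at most in the germ-negative barcodes.

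Many barcodes lay at the threshold. Of the 73, 42 had exactly 3 marker UMIs (24 germ-positive, 18 germ-negative), 12 had 4 and 19 had at least 5 (5 germ-positive, 14 germ-negative). Just outside, 66 barcodes had 2 markers with 2 UMIs in sum, 54 of them with the germ cell signature. A further 24 barcodes had at least 3 UMIs of 1 marker alone, 12 of zap70 and 5 of rag1.

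**Figure D2:**
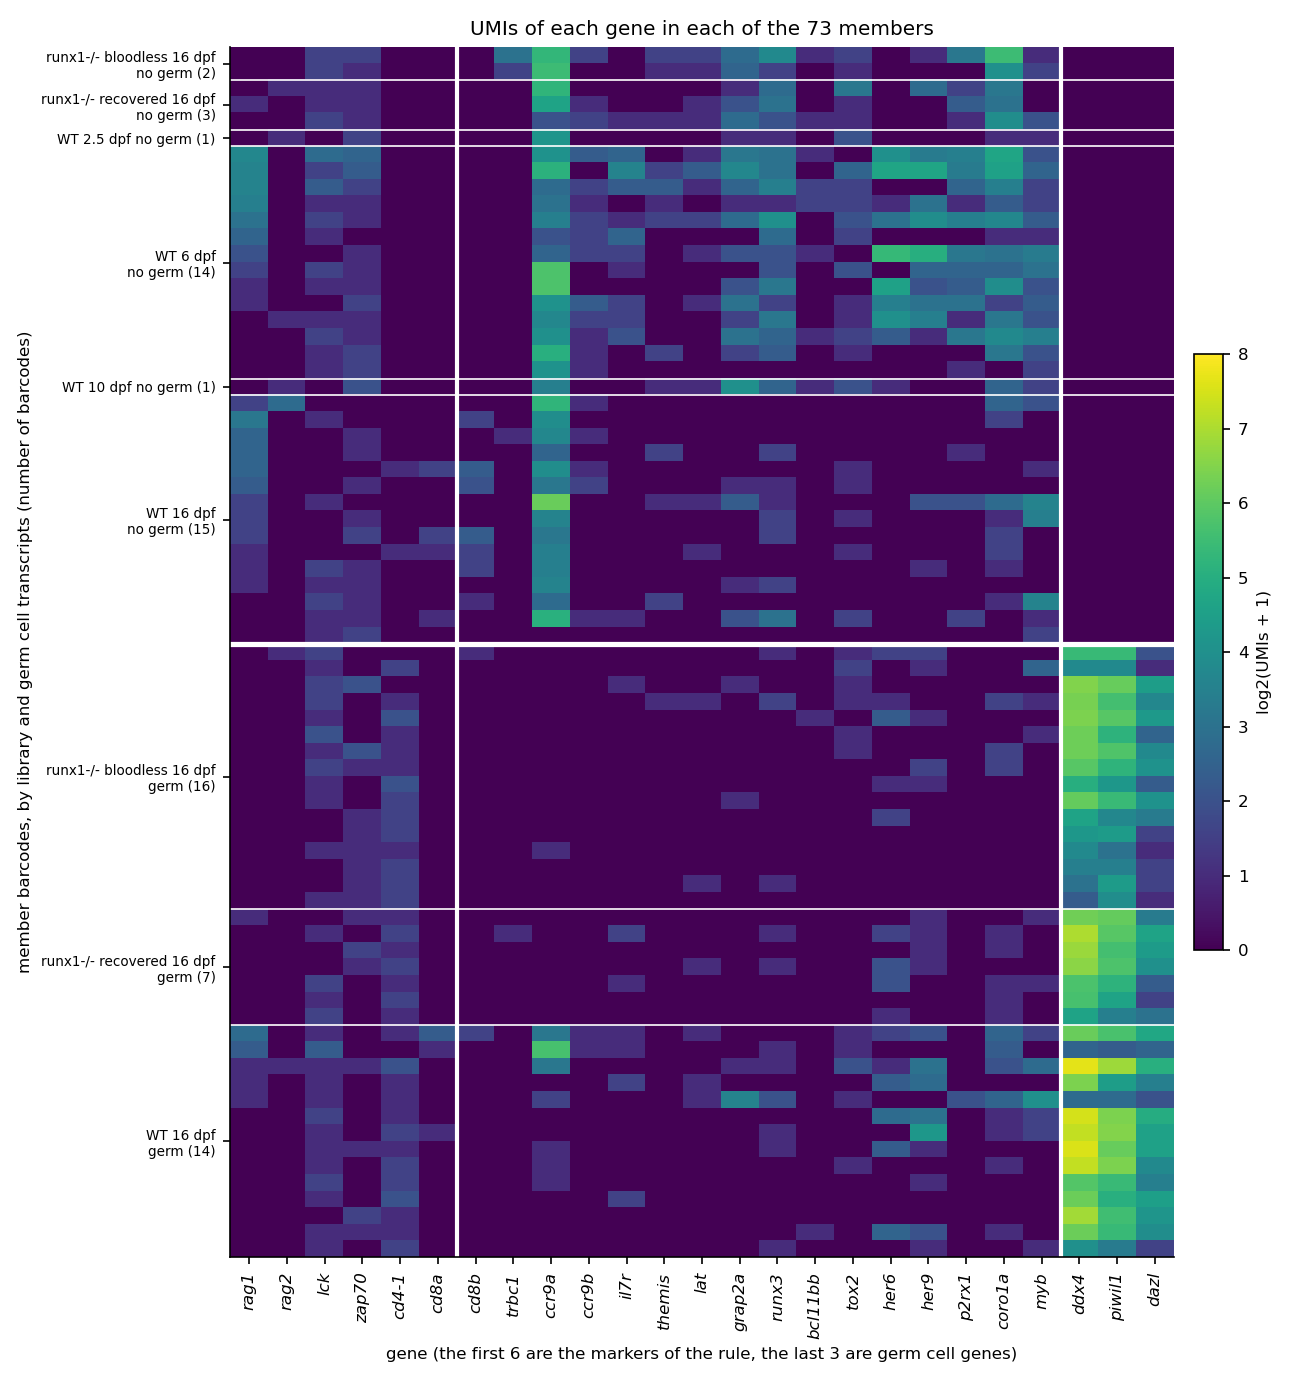
UMIs of 25 genes (columns, colour as log2 of UMIs + 1) in each of the 73 marker-positive barcodes (rows), germ-negative barcodes apart from germ-positive ones and ordered by library. Members in the plot are the marker-positive barcodes, and ccr9a was found in 35 of 36 germ-negative rows and cd4-1 in 34 of 37 germ-positive rows.

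The 14 germ-negative barcodes of WT at 6 dpf met the rule through rag1, lck and zap70, with 1 UMI of rag2. They had 5045 to 31497 UMIs, with a median of 13770. rag1 was found in 10 of them with 0 to 12 UMIs each and 63 in all. lck gave 24 UMIs in 12 barcodes and zap70 24 UMIs in 13. cd4-1 and cd8a gave 0. The largest marker sum of all 73 barcodes, 23 UMIs, belonged to a barcode of this group with 12 UMIs of rag1, 6 of lck and 5 of zap70.

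At 16 dpf the 15 germ-negative WT barcodes had rag1 in 12 (38 UMIs), zap70 in 10 (12 UMIs), lck in 7 (9 UMIs), cd8a in 4 (6 UMIs) and cd4-1 in 2 (2 UMIs). rag2 gave 6 UMIs, all in 1 barcode that also held 2 of rag1. The 5 germ-negative runx1-/- barcodes of that age differed in make-up. The 2 of the bloodless library had lck in both (4 UMIs), zap70 in both (3 UMIs) and neither rag gene. The 3 of the recovered library had lck in 3 (4 UMIs), zap70 in 3 (3 UMIs), and 1 UMI each of rag1 and rag2 in different barcodes. As summed levels, rag1 was 15.6 CPM in the 5 runx1-/- barcodes, against 298 CPM in WT of the same age and 270 CPM in WT at 6 dpf. The 2 remaining barcodes, of WT at 2.5 and 10 dpf, each had 1 UMI of rag2, with 2 and 3 UMIs of zap70.

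Antigen receptor and co-receptor genes outside the rule were detected in different libraries at 16 dpf. trbc1, a constant region gene of the T cell receptor beta chain, gave 2 and 7 UMIs in the 2 runx1-/- bloodless barcodes (367 CPM) and 0 in the 3 recovered ones, against 1 UMI in the 15 WT barcodes (7.85 CPM). It gave 0 UMIs in the 14 WT barcodes at 6 dpf and stood at 0.392 CPM in the other barcodes. cd8b, the partner chain of Cd8a, gave 0 UMIs in the 5 runx1-/- barcodes, against 18 UMIs in 7 of 15 WT barcodes at 16 dpf (141 CPM), and 0 at 6 dpf. Either Cd8 chain was found in 8 of the 36 germ-negative barcodes, 6 of them with a rag transcript, and both chains in 3. The 0 of cd8b in the runx1-/- barcodes allows a level of up to 57.7 CPM by its exact 95% Poisson bound, which is below the WT level of that age. With 1 library in each of these groups, the counting intervals do not cover the spread between animals.

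The WT barcodes at 16 dpf differed widely in depth. Among the WT barcodes at 16 dpf, 6 had 633 to 1269 UMIs and 9 had 4089 to 22937 UMIs. The 6 shallow barcodes all had a rag gene, and their rag1 level was 3541 CPM, against 140 CPM in the 9 deeper ones. The rule asks for 3 marker UMIs at any depth, and its part in this difference was not tested. cd8b and ccr9a are outside the rule, and both were also higher in the shallow barcodes. cd8b gave 15 UMIs in 5 of the 6 shallow barcodes (2530 CPM) and 3 UMIs in 2 of the 9 deeper ones (24.7 CPM). Beside the deeper WT barcodes alone, the 0 UMIs of cd8b in the runx1-/- barcodes, which had 7906 to 18193 UMIs each, leave no detectable difference. ccr9a gave 65 UMIs (10961 CPM) in the shallow and 185 UMIs (1524 CPM) in the deeper barcodes.

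ccr9a, the receptor for the thymic chemokine Ccl25, was widely shared, in 35 of 36 germ-negative and 8 of 37 germ-positive barcodes. It gave 82 UMIs in 2 of 2 runx1-/- bloodless barcodes (3341 CPM), 64 UMIs in 3 of 3 recovered (1626 CPM), 278 UMIs in 14 of 14 WT barcodes at 6 dpf (1192 CPM) and 250 UMIs in 14 of 15 WT barcodes at 16 dpf (1963 CPM). The other barcodes stood at 331 CPM and those among them with macrophage markers at 1049 CPM. Its paralogue ccr9b was found in fewer barcodes. ccr9b gave 2 UMIs in 1 bloodless, 3 UMIs in 2 recovered, 22 UMIs in 11 of 14 WT barcodes at 6 dpf and 6 UMIs in 5 of 15 at 16 dpf, against 1.05 CPM in the other barcodes. il7r, the receptor of the lymphoid growth factor interleukin-7, was found mainly at 6 dpf. It gave 36 UMIs in 10 of 14 WT barcodes at 6 dpf (154 CPM), with 0 UMIs in bloodless, 1 in recovered and 1 in WT at 16 dpf (7.85 CPM).

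Genes of receptor signalling were found in most of the 5 runx1-/- barcodes at 16 dpf (median 13261 UMIs) and in fewer of the 15 WT barcodes (median 4486 UMIs), which were shallower. grap2a, an adaptor of the receptor complex, gave 11 UMIs in 2 of 2 bloodless and 10 UMIs in 3 of 3 recovered barcodes (329 CPM together), against 9 UMIs in 4 of 15 WT barcodes of that age (70.7 CPM) and 56 UMIs in 11 of 14 at 6 dpf (240 CPM). themis, which sets receptor signal strength during selection in the mouse thymus, gave 3, 1, 5 and 11 UMIs in bloodless, recovered, WT 16 dpf and WT 6 dpf. The membrane scaffold gene lat gave 3, 2, 2 and 10 UMIs in the same order. Summed over the T receptor signalling list, the level was 1142 CPM (95% Poisson interval 895 to 1436) in the 5 runx1-/- barcodes, 712 CPM (608 to 829) in WT at 6 dpf and 416 CPM (312 to 544) in WT at 16 dpf.

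Of the T lineage transcription factors, runx3, a factor of cytotoxic T cells in mammals, was found together with ccr9a in 27 of 36 germ-negative barcodes. runx3 gave 15 UMIs in 2 of 2 bloodless and 16 UMIs in 3 of 3 recovered barcodes (485 CPM together), against 17 UMIs in 7 of 15 WT barcodes at 16 dpf (134 CPM), 79 UMIs in 13 of 14 at 6 dpf (339 CPM) and 19.2 CPM in the other barcodes. myb, a factor of progenitors and thymocytes, ran the other way at 16 dpf, with 6 UMIs in the 5 runx1-/- barcodes and 39 UMIs in 7 of 15 WT barcodes (306 CPM). At 6 dpf myb was found in 14 of 14 WT barcodes with 58 UMIs (249 CPM). bcl11bb, a paralogue of the T commitment factor gene Bcl11b, gave 1 UMI in bloodless, 1 in recovered, 0 in WT at 16 dpf and 7 in WT at 6 dpf, against 0.138 CPM in the other barcodes. The list as a whole stood at 3004 CPM (2594 to 3461) in the 5 runx1-/- barcodes, 1432 CPM (1283 to 1594) in WT at 6 dpf and 1209 CPM (1026 to 1416) in WT at 16 dpf. Its most abundant gene over the 36 germ-negative barcodes was nr4a1, with 185 UMIs in 21 of them (408 CPM). The part of nr4a1 in the list levels was not tested.

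The Notch pathway list was highest at 6 dpf. It stood at 235 CPM (131 to 387) in the 5 runx1-/- barcodes, 1226 CPM (1088 to 1377) in WT at 6 dpf and 188 CPM (121 to 280) in WT at 16 dpf. At 6 dpf most of it came from her6 and her9, transcriptional repressors of the Hairy and E(spl) family that Notch can induce. her6 gave 140 UMIs in 9 of 14 WT barcodes at 6 dpf (600 CPM) and 0 UMIs in the 5 runx1-/- and the 15 WT barcodes at 16 dpf. her9 gave 112 UMIs in 10 of 14 WT barcodes at 6 dpf (480 CPM), 7 UMIs in 2 of the 5 runx1-/- barcodes and 4 UMIs in 2 WT barcodes at 16 dpf (31.4 CPM). The age difference in WT rests on 1 library at each age, so age and library cannot be told apart.

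Cell cycle genes were concentrated in few barcodes at 6 dpf. The level of the Mitosis list was 2644 CPM in the 5 runx1-/- barcodes, 832 CPM in WT at 6 dpf and 825 CPM in WT at 16 dpf. At 6 dpf, 2 barcodes held 133 and 57 of its 194 UMIs and carried 12 and 11 UMIs of rag1. Across the germ-negative barcodes, 8 had a rag transcript and at least 10 UMIs of the Mitosis list. DNA replication genes stood at 5492 CPM in the 5 runx1-/- barcodes, 1325 CPM in WT at 6 dpf and 2136 CPM in WT at 16 dpf.

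**Figure D3:**
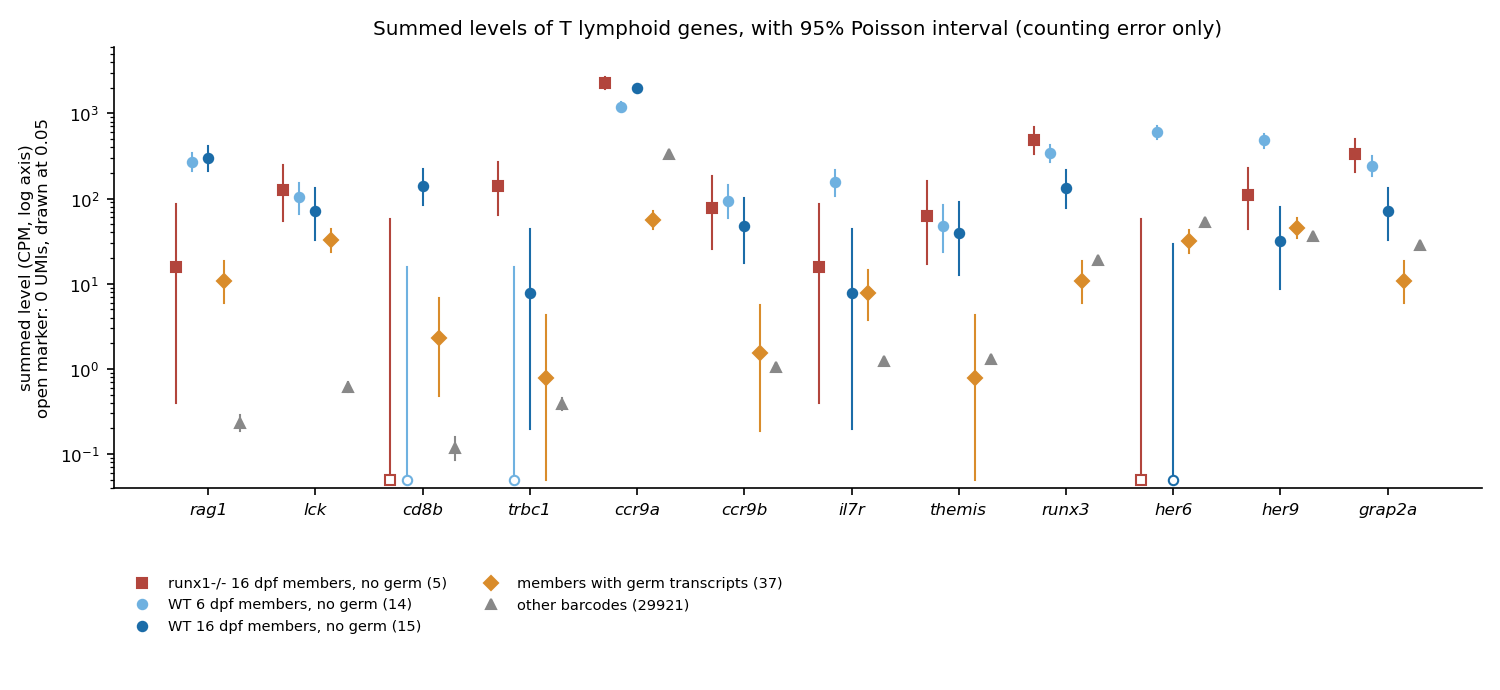
Summed level of 12 genes in CPM (log axis) with the 95% Poisson interval, in the germ-negative marker-positive barcodes of runx1-/- at 16 dpf (5) and of WT at 6 dpf (14) and 16 dpf (15), in the germ-positive barcodes (37) and in the other barcodes (29921). Open symbols are 0 UMIs, as for cd8b in runx1-/- at 16 dpf and in WT at 6 dpf, and her6 in both groups at 16 dpf.

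A pair of genes outside every list was picked after its values were seen. Of the 36 germ-negative barcodes, 19 held p2rx1 and 28 held coro1a. Among the 15 from WT at 16 dpf these numbers were 3 and 8. p2rx1, an ATP-gated channel gene, gave 8 UMIs in bloodless, 7 in recovered, 69 in 12 of 14 WT barcodes at 6 dpf (296 CPM) and 6 in WT at 16 dpf (47.1 CPM), against 3.94 CPM in the other barcodes. coro1a, a leukocyte actin regulator gene, gave 59 UMIs in the 2 bloodless barcodes (2404 CPM), 29 in the 3 recovered (737 CPM), 132 in WT at 6 dpf (566 CPM) and 20 in WT at 16 dpf (157 CPM), against 152 CPM in the other barcodes.

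Single barcodes carried much of some sums. A germ-negative WT barcode at 16 dpf had 15744 UMIs, of which 4922 (31.3%) were stc1l, a stanniocalcin gene. It had 1 UMI of lck, 2 of zap70, none of ccr9a and 17 of the thymic epithelial list. These values leave the label T lymphoid in doubt for this barcode too. It was kept in the germ-negative sums of WT at 16 dpf, where it held 15744 of 127332 UMIs. A germ-positive bloodless barcode of 77305 UMIs, 31 of them of germ cell genes, had 5973 UMIs of the erythroid list, and 8.45% of its UMIs were haemoglobin. The Dissociation response list, which holds immediate early and heat shock genes, stood at 10264 CPM in the germ-negative and 2658 CPM in the germ-positive barcodes, and its part in the other differences was not tested.

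Of the 73 barcodes, 34 were rag-positive (at least 1 UMI of rag1 or rag2) and 39 rag-negative, and of the germ-negative barcodes 27 were rag-positive and 9 rag-negative. In the germ-positive barcodes 7 of 37 were rag-positive. By library, the rag-positive share at 16 dpf was 5.56% in runx1-/- bloodless, 30.0% in runx1-/- recovered and 58.6% in WT. The mean log2 ratio of these shares, runx1-/- over WT, was -1.88, and -3.59 when rag-positive meant at least 2 UMIs. Of the germ-negative barcodes at 16 dpf, 0 of 2 in bloodless, 2 of 3 in recovered and 12 of 15 in WT were rag-positive. The part of the germ-positive barcodes in the ratios was not tested. These shares rest on genes of the rule and are given with no test, and the smallest p that an exact permutation over the 3 libraries allows is 0.333. Only WT at 16 dpf had at least 10 barcodes of each kind, so no test of other genes between rag-positive and rag-negative barcodes could be fitted. What follows describes the germ-negative barcodes of WT.

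At 6 dpf the 11 rag-positive barcodes (188801 UMIs) were set beside 3 rag-negative ones (44422 UMIs). il7r gave 33 UMIs in 9 of 11 rag-positive barcodes and 3 UMIs in 1 of 3 rag-negative ones. her6 gave 136 UMIs in 8 of 11 rag-positive barcodes (720.3 CPM, 604 to 852) and 4 UMIs in 1 of 3 rag-negative ones (90.0 CPM, 24.5 to 231). her9 gave 111 UMIs in 9 of 11 and 1 UMI in 1 of 3. lat gave 10 UMIs in 6 of 11 rag-positive barcodes and 0 in the rag-negative ones, where a 0 allows up to 83.0 CPM, above the 53.0 CPM of the rag-positive barcodes. bcl11ba and tox, both coding for T lineage transcription factors, gave 8 UMIs each in the rag-positive barcodes and 0 in the rag-negative ones, and at this depth no difference was detectable for them either.

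Other genes were on both sides or on the rag-negative side. ccr9a was found in 11 of 11 rag-positive and 3 of 3 rag-negative barcodes at 6 dpf, at 1139 CPM in rag-positive and 1418 CPM in rag-negative ones. runx3 stood at 371 CPM in rag-positive and 202.6 CPM in rag-negative barcodes, with intervals of 289 to 468 and 92.6 to 385 that overlap. klf2a, whose product opens the programme by which mature T cells leave the thymus in mice, gave 0 UMIs in the 11 rag-positive and 14 UMIs in 2 of the 3 rag-negative barcodes (315 CPM, 172 to 529). s1pr4, a sphingosine phosphate receptor gene, gave 0 UMIs in the rag-positive barcodes and 11 UMIs in 1 rag-negative barcode. At 16 dpf neither klf2a nor s1pr4 was detected in any of the 15 germ-negative WT barcodes.

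At 16 dpf the 12 rag-positive barcodes held 69833 UMIs (median 2679 each) and the 3 rag-negative ones 57499 UMIs (median 18818), so the kinds differed in depth. ccr9a gave 211 UMIs in 12 of 12 rag-positive barcodes (3021 CPM, 2628 to 3458) and 39 UMIs in 2 of 3 rag-negative ones (678 CPM, 482 to 927). The rag-negative barcode without ccr9a was the stc1l-rich one described above, which held 15744 of the 57499 UMIs. cd8b gave 17 UMIs in 6 of 12 rag-positive barcodes (243 CPM, 142 to 390) and 1 UMI in 1 of 3 rag-negative ones (17.4 CPM, 0.440 to 96.9). Of the 17 UMIs, 15 lay in the 6 shallow barcodes, which were all rag-positive, so depth and rag cannot be told apart here. il7r gave 0 UMIs in the 12 rag-positive barcodes and 1 in the rag-negative ones.

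**Figure D4:**
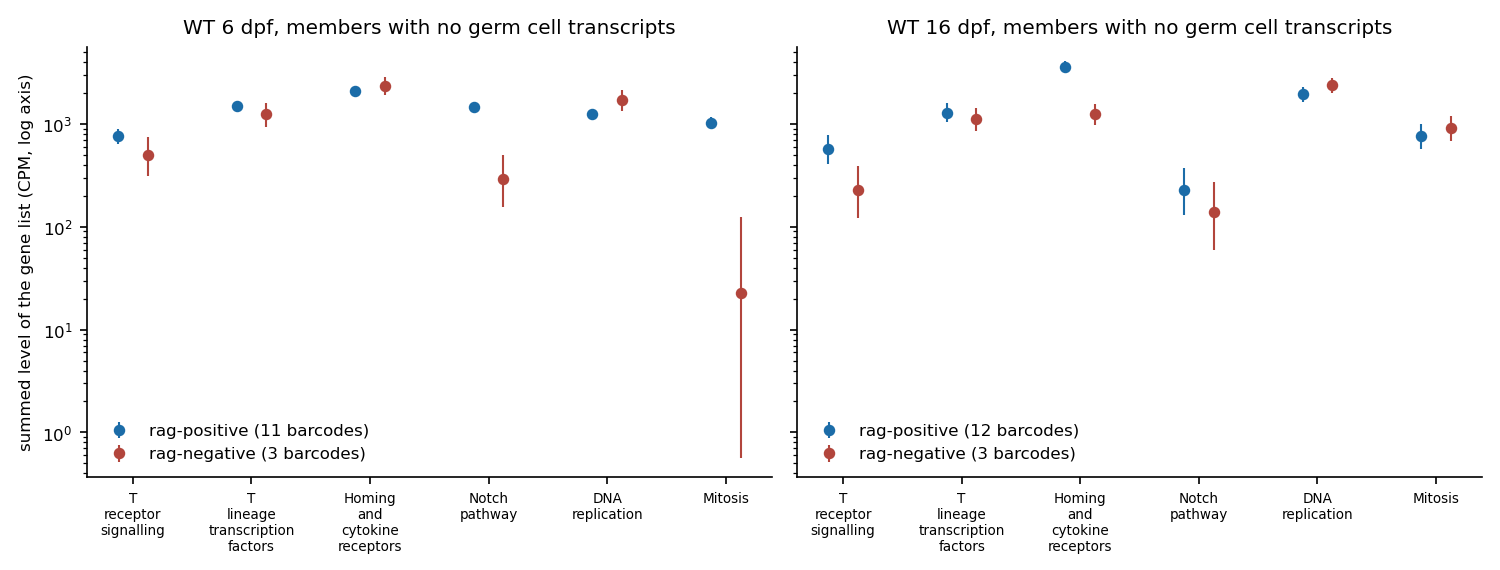
Summed level of 6 gene lists in CPM (log axis) with the 95% Poisson interval, in rag-positive and rag-negative germ-negative barcodes of WT at 6 dpf (11 and 3) and at 16 dpf (12 and 3). The Notch pathway and Mitosis lists lie apart at 6 dpf, where 1446 and 1022 CPM in rag-positive barcodes stand beside 293 and 22.5 CPM in rag-negative ones, and the homing list lies apart at 16 dpf. Of the 193 Mitosis UMIs in rag-positive barcodes at 6 dpf, 133 and 57 lie in 2 barcodes. The rag-negative barcodes at 16 dpf include the stc1l-rich one without ccr9a.

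The marker-positive barcodes were then tested against the other barcodes in genes that the rule did not use. Counts were summed per library and class in the 4 libraries with at least 10 marker-positive barcodes. These libraries hold 71 of the 73, all 37 germ-positive ones included. Germ-positive barcodes held 1285570 of the 1710032 UMIs in the marker-positive sums. The marker-positive side of the test therefore came mostly from germ-positive barcodes, and the part of these barcodes in the calls was not tested. By edgeR's quasi-likelihood test with library as a block and Benjamini-Hochberg adjustment, 4440 of 15313 genes (29.0%) passed an adjusted p of 0.05, 991 higher (6.47%) and 3449 lower (22.5%) in the marker-positive barcodes. The direction of many calls depended on scaling. The split of 22.3% higher and 77.7% lower became 65.2% and 34.8% with DESeq2, which called 20% of all genes (13% higher, 6.95% lower). It became 91.4% and 8.58% with scaling to library totals, an alternative chosen after seeing the data that called 39.9% (36.5% higher, 3.42% lower). The median log2 fold change of all genes was -0.38, 0.25 and 1.08 under these 3 scalings. Genes are named below with their direction where it held under all 3, and other changes are stated beside that shift.

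Among T lineage genes outside the rule, 1 of 6 receptor genes tested, 4 of 26 signalling genes, 3 of 35 transcription factor genes and 2 of 28 homing genes were higher in the marker-positive barcodes, beside 6.47% of all genes. The counts for transcription factor and homing genes are near that share, and more members of both lists were lower (12 and 11). ccr9b had 2, 3, 22 and 8 UMIs in the marker-positive barcodes of bloodless, recovered, WT 6 dpf and WT 16 dpf, and its log2 fold change was 3.14 ± 0.527 (SE; edgeR adjusted p = 1.05e-07), higher in 4 of 4 libraries. bcl11bb had 2, 1, 7 and 1 UMIs in the same order, with a log2 fold change of 3.78 ± 0.739 (edgeR adjusted p = 7.46e-06) and higher in 4 of 4. themis had 4, 1, 11 and 5 UMIs, with 2.80 ± 0.556 (edgeR adjusted p = 1.06e-05), higher in 4 of 4. The receptor constant gene trbc1, listed as FP236356.1, had 9, 1, 0 and 1 UMIs, with 2.46 ± 0.712 (edgeR adjusted p = 0.00395), higher in 3 of 4. All 11 UMIs of trbc1 lay in 4 barcodes.

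Calls of il7r, lat, itk and runx3 depended on single libraries. il7r rose by 2.71 ± 0.499 on the log2 scale (edgeR adjusted p = 1.73e-06) with 1, 4, 36 and 7 UMIs in bloodless, recovered, WT 6 dpf and WT 16 dpf, and without WT at 6 dpf it was 1.29 (adjusted p = 0.169). lat rose by 1.31 ± 0.486 (edgeR adjusted p = 0.0294), and its adjusted p was 0.587 without WT at 6 dpf and 0.0894 without WT at 16 dpf. itk, a kinase below the receptor, rose by 2.61 (edgeR adjusted p = 0.00819) on 7 UMIs and lost its call without WT at 6 dpf. runx3 had 19, 18, 79 and 25 UMIs and rose by 1.07 ± 0.358 (edgeR adjusted p = 0.0138), and it lost its call without WT at 6 dpf, where it was 0.44, and without either runx1-/- library. sla2b, listed as sla2, an adaptor that dampens receptor signals in mammals, rose by 1.63 ± 0.367 (edgeR adjusted p = 0.000132) with 14, 8, 15 and 25 UMIs.

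The 10 T lineage genes divided by kind of barcode. Germ-positive barcodes held 2 of the 35 UMIs of ccr9b, 1 of the 21 of themis and 14 of the 141 of runx3, so these sums came mostly from germ-negative barcodes. sla2b, in contrast, had 36 UMIs in germ-positive and 26 in germ-negative barcodes. lef1, a transcription factor gene of the Tcf family, and jag2b, a Notch ligand gene, also passed, with log2 fold changes of 1.61 and 1.33, and all of their UMIs, 16 and 44, lay in germ-positive barcodes. Outside the T lineage lists, zgc:136605 rose by 3.13 ± 0.515 (edgeR adjusted p = 5.73e-08) with 18, 5, 1 and 8 UMIs in bloodless, recovered, WT 6 dpf and WT 16 dpf, 13 of them in germ-positive and 19 in germ-negative barcodes. dnaaf4, a gene of dynein arm assembly, rose by 2.28 and arpp21, a phosphoprotein gene of neurons and thymocytes in mice, by 2.11, with 51 of 65 and 27 of 37 UMIs in germ-positive barcodes. All UMIs of 3 further genes lay in germ-positive barcodes, namely the immunoglobulin light chain gene igic1s1 (11 UMIs), the interleukin-17 gene listed as BX294375.1 (17 UMIs) and stab2 (83 UMIs). The 5 germ cell genes tested, ddx4, piwil1, dazl, dnd1 and nanos3, were higher by 1.17 to 1.64 on the log2 scale, and the germ split above shows where their UMIs lay.

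By list, the T receptor signalling genes had 4 higher and 4 lower of 26 tested, with a median log2 fold change of -0.42 against -0.38 over all genes. The T lineage transcription factors had 3 higher and 12 lower of 35 (median -0.73), and homing and cytokine receptors had 2 higher and 11 lower of 28 (median -1.67). With DESeq2 the higher and lower counts were 5 and 1 for signalling, 4 and 7 for transcription factors and 2 and 4 for homing. With library totals they were 8 and 1 of 28, 13 and 1 of 38, and 4 and 3 of 29. The receptor and co-receptor list had 1 higher and 2 lower of 6. Its lower members were tnfrsf9a, a costimulatory receptor gene, and cd3eap, whose product is a subunit of RNA polymerase I despite its name. Mitosis genes had 0 higher and 0 lower of 19 by edgeR, 2 and 0 with DESeq2, and 12 and 0 of 20 with library totals.

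Lower under all 3 scalings in the T lineage lists were tnfrsf9a, the receptor adaptor gene lcp2a, the E protein inhibitor gene id3, the chemokine receptor gene cxcr4b, klf2b and the integrin gene itga4. In the effector list these were the cytokine gene tnfb and ccl36.1, and in the survival and death list mcl1a, baxa and pmaip1. mcl1a stood at 559 CPM over all 73 marker-positive barcodes and at 1474 CPM over the germ-negative ones. cxcr4b fell by 2.64 on the log2 scale (edgeR adjusted p = 1.25e-09), with 106 CPM in the marker-positive and 263 CPM in the other barcodes of the 4 libraries. tnfrsf9a fell by 4.82 (edgeR adjusted p = 5.4e-14). myb fell by 2.08 (edgeR adjusted p = 1.18e-06) and was not called with library totals, at 81.9 CPM in the marker-positive and 110 CPM in the other barcodes. Over the 36 germ-negative barcodes alone, cxcr4b stood at 364 CPM and myb at 234 CPM, both above the other barcodes. In the 4 libraries, germ-positive barcodes held 19 of the 182 UMIs of cxcr4b and 37 of the 140 of myb. Their part in these falls was not tested. Erythroid genes were lower for 21 of 21 tested (18 with DESeq2, 20 with library totals), and stem and progenitor genes for 13 of 15 (11 with DESeq2, 9 with library totals). The neutrophil genes outside the rule were lower for 9 of 9 (7 with DESeq2, 6 with library totals). The 10 largest falls, which include mmp13a, a collagenase gene, and grn1, a granulin gene of macrophages, were all of genes at 0 UMIs in the marker-positive barcodes. Against a floor of 3 UMIs over the group, mmp13a was at least 62.7-fold lower and grn1 at least 28.9-fold lower.

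**Figure D5:**
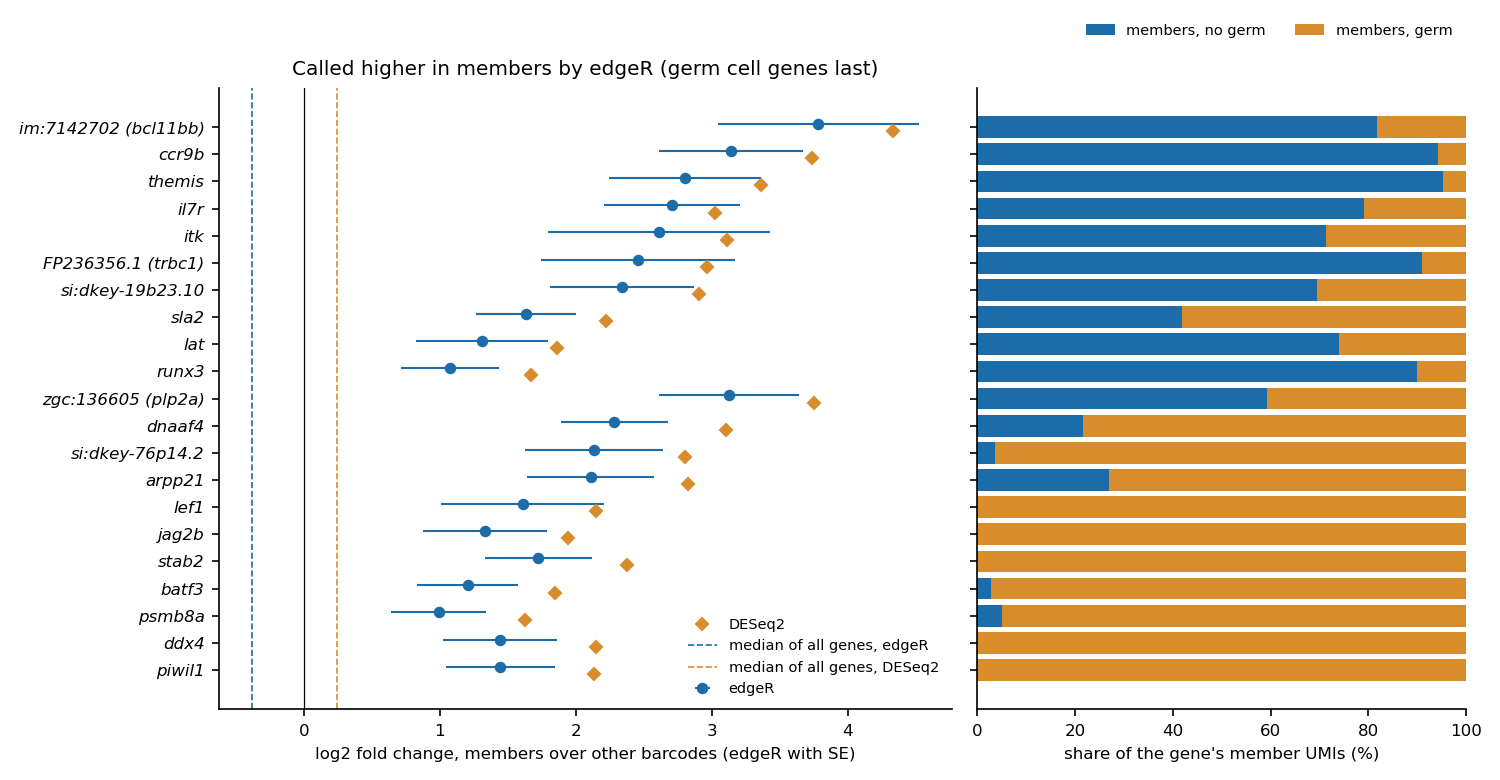
Log2 fold change of 21 genes higher in marker-positive than in other barcodes (left panel, edgeR with SE and DESeq2, dashed lines at the medians of all genes, -0.38 and 0.25), and the share of each gene's UMIs that lay in germ-negative and germ-positive barcodes (right panel). ccr9b, themis and runx3 lie mostly in germ-negative barcodes, and lef1, jag2b and the germ cell genes in germ-positive ones.

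The share of marker-positive barcodes was compared between genotypes. At 2.5 dpf it was 0 of 1173 in runx1-/-, which allows a share of up to 0.256%, against 1 of 2200 in WT (0.0455%). At 6 dpf it was 0 of 767 in runx1-/-, which allows up to 0.391%, against 14 of 2728 in WT (0.513%, exact Clopper-Pearson 95% interval 0.281 to 0.860). At 10 dpf it was 0 of 3323 in runx1-/-, which allows up to 0.0903%, against 1 of 2583 in WT (0.0387%). At 16 dpf it was 18 of 3452 in runx1-/- bloodless (0.521%, 0.309 to 0.823) and 10 of 7654 in runx1-/- recovered (0.131%, 0.0627 to 0.240), against 29 of 6114 in WT (0.474%, 0.318 to 0.680). Intervals and allowed shares cover counting error only. At 6 dpf the median barcode that passed had 4276 UMIs in runx1-/- and 13353 UMIs in WT. The part of this depth gap in the share at 6 dpf was not tested. Every share is one of sorted cells, so fewer cells of this kind and less RNA per cell cannot be told apart.

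The log2 ratio of the shares, runx1-/- over WT with 0.5 barcodes added, was -0.68, -3.03, -1.95 and -0.83 at 2.5, 6, 10 and 16 dpf. Its mean was -1.62, below 0 at 4 of 4 ages, where the values at 2.5 and 10 dpf rest on 1 barcode in WT and 0 in runx1-/-. At 5 marker UMIs the mean was -1.13, with 0.91 at 2.5 dpf and -0.36 at 10 dpf, where neither genotype had a barcode. After thinning to 1000 UMIs, which left 2 marker-positive barcodes, both of WT at 16 dpf, the mean was 0.11. It was -2.06 at 16 dpf, and at 2.5, 6 and 10 dpf neither genotype had a barcode. Where neither genotype had a barcode, the ratio reflects only the 0.5 added and the numbers of barcodes compared. The exact permutation test over 24 reassignments within ages gave a two-sided p of 0.125, where the smallest possible is 0.0417, so the shares did not pass the test. When germ-positive barcodes were left out, a choice made after their values were seen and not tested, the share at 16 dpf was 0.0579% in bloodless (0.00702 to 0.209) and 0.0392% in recovered (0.00808 to 0.115), against 0.245% in WT (0.137 to 0.404). The mean log2 ratio was then -1.95, with -2.14 at 16 dpf.

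Within marker-positive barcodes, gene levels were tested between genotypes at 16 dpf, the only age with 10 such barcodes in each genotype. By edgeR's quasi-likelihood test on 3 library sums, 54 of 7065 genes (0.764%) passed an adjusted p of 0.05, 22 higher (0.311%) and 32 lower (0.453%) in runx1-/-. The genes of the rule stayed in this fit, and rag1 and lyz are among the 54. WT is 1 library here, and the 1 residual degree of freedom is the difference between the bloodless and recovered libraries, so the p-values hold no measure of the spread within WT. DESeq2 called 4 (0.0566%, with 0.0283% higher and 0.0283% lower), library totals gave 53 (0.778%, with 0.470% higher and 0.308% lower), and edgeR called 3 once the highest doublet scores were removed. rag1, which the rule used and which is therefore given with no test, had 0 UMIs in bloodless and 2 in recovered, against 51 in WT. myb had 10 and 5 UMIs in bloodless and recovered, against 67 in WT, and fell by 2.42 (edgeR adjusted p = 0.000533). ccr9a had 83 and 64 UMIs, against 321 in WT, and fell by 1.33 (edgeR adjusted p = 0.0219). Both lost their call with DESeq2 (-2.37 for myb and -1.25 for ccr9a) and without the highest doublet scores (-2.26 and -1.07), with folds near those of the first fit, and ccr9a also with library totals (-1.06). In the germ-negative barcodes alone, the summed level of ccr9a given above was higher in bloodless and lower in recovered than in WT at 16 dpf. Beside the 9 deeper WT barcodes alone (1524 CPM), recovered was higher as well.

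In the T lineage lists counted here, myb and ccr9a passed. The T receptor signalling list had 0 higher and 0 lower of 8 genes tested, the transcription factors 0 and 1 of 15 (myb), homing and cytokine receptors 0 and 1 of 6 (ccr9a), and the Notch pathway 0 and 0 of 10. cd8b had 1 and 0 UMIs in bloodless and recovered, against 20 in WT, and missed the threshold (edgeR adjusted p = 0.43). The markers lck and zap70 had 22 and 16 UMIs in bloodless and 10 and 7 in recovered, against 27 and 17 in WT. Germ-positive barcodes held most UMIs of each sum fitted here. They held 456160 of 480707 UMIs in bloodless, 217122 of 256482 in recovered and 612288 of 739620 in WT at 16 dpf. Their part in the values of rag1, myb and ccr9a was not tested.

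Several other calls came from 1 barcode or from the annotation. Erythroid genes were higher for 8 of 14 tested, and AL935210.1, listed with no symbol, had 2257, 14 and 1 UMIs in bloodless, recovered and WT, 2239 of them in 1 bloodless barcode. None of these 8 erythroid calls was made with DESeq2. stc1l had 13, 8 and 4927 UMIs and zgc:195023 had 0, 0 and 396, nearly all in the WT barcode described above. The ribonucleotide reductase gene rrm2 was listed under 2 identifiers, ENSDARG00000020711 with 104, 52 and 0 UMIs and ENSDARG00000078069 with 47, 53 and 265 UMIs in bloodless, recovered and WT. The first was called higher and the second, at -1.56 on the log2 scale, lower in runx1-/-, and near-identical copies can share reads, so the direction of either copy alone is uncertain. The claudin gene cldni had 11, 6 and 137 UMIs and zgc:162730 had 19, 15 and 153 in the same order, both lower in runx1-/- by edgeR and called by neither DESeq2 nor edgeR without the highest doublet scores. The metallothionein gene mt2 had 4, 8 and 56 UMIs, 37 of the 56 in 1 barcode, and the histone gene h1m had 6, 47 and 1 UMIs, 46 of the 47 in 1 germ-positive barcode.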

How the data were processed

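Single-cell RNA libraries were made with the 10x Genomics 3' kit, version 3, per the labels' protocols. The authors deposited whole-number UMI counts per gene and barcode, not normalized. The submitters' processing notes name Cell Ranger 2.0.2 and GRCz10, and the headers of 5 matrices give software 3.1.0, so versions may differ between libraries. Gene rows number 26586 in the 2.5 dpf libraries and 26573 in the others. Members and gene lists were chosen with earlier results of these data known. The 24 lists hold 440 genes, of which 32 were not used here for want of a row, and symbols were matched by gene identifier.

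Counts were summed per library and barcode class and given as CPM of the class. Fits used edgeR 4.0.16 in R 4.3.3 (TMM, low-count filter, Benjamini-Hochberg adjustment over all genes tested), after the 9 genes of the rule were taken out of the test against other barcodes. In that test library was a block. DESeq2 1.42.0, no filter, a mitochondrial limit of 10%, removal of the 1119 highest doublet scores (0.8% per 1000 barcodes, Scrublet in scanpy 1.11.5), scaling to library totals and leaving out each library or age were alternatives. Barcodes were also thinned to 1000 UMIs. Doublets were otherwise kept. Simulated data had 200 genes changed by 2 on the log2 scale, up or down, at a dispersion of 0.1. In the comparison with other barcodes (14632 genes tested), 83 of them were called, 43.5% of the changed genes tested, with 9 false calls. In the genotype comparison (6275 genes tested), 39 were called, 22.4% of the changed genes tested, with 6 false calls. Apart from the changed genes, every simulated sum was drawn from 1 profile pooled over all sums. The counts of false calls therefore hold only for data without a shift in composition. Shares have exact Clopper-Pearson and levels exact Poisson 95% intervals, which cover counting error only, and a count of 0 was bounded at 3 counts for shares and folds. Cells of 1 library are not replicates. Outside the genotype fit, p-values measure the spread between libraries. In the genotype fit they rest on the difference between the bloodless and recovered libraries and hold no measure of the spread within WT. Named were the 6 markers, list members that passed or were among the 3 most abundant of their list, and the 10 largest changes in each direction with at least 50 counts and 1 sign in every library, from which a selection is printed.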

Additional observations from a re-analysis of the deposited data

Results flagged for a closer look

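For 3 genes marker-positive and other barcodes differed one way in both WT libraries and the other way in both runx1-/- libraries, by CPM, and the difference between genotypes was not tested. The search covered only genes that passed the test against other barcodes and were list members or among the largest changes. How often all genes show this pattern was not counted. For hmgb2a, a chromatin gene of dividing cells, marker-positive and other barcodes had 1017 and 1567 CPM in bloodless, 1263 and 1514 CPM in recovered, 695 and 354 CPM in WT at 6 dpf and 1057 and 973 CPM in WT at 16 dpf. For pcna, the DNA polymerase clamp gene, they had 381 and 620 CPM in bloodless, 608 and 760 CPM in recovered, 232 and 149 CPM in WT at 6 dpf and 562 and 384 CPM in WT at 16 dpf. For casp8, an initiator caspase gene, they had 10.4 and 14.5 CPM in bloodless, 7.80 and 12 CPM in recovered, 8.58 and 3.77 CPM in WT at 6 dpf and 16.2 and 15.3 CPM in WT at 16 dpf. The casp8 levels of the marker-positive barcodes rest on 21 UMIs over the 4 libraries. The edgeR log2 fold changes over the 4 libraries were -1.34, -1.35 and -1.52 for hmgb2a, pcna and casp8.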

How the results depend on the processing

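The 4440 genes that differed between marker-positive and other barcodes became 3059 with DESeq2 and 6935 with scaling to library totals (chosen after seeing the data; 1585 of these were also among the 4440), and 2347 to 4290 when 1 library was left out, with 2394 without bloodless and 2347 without WT at 16 dpf. The log2 fold changes of hmgb2a and pcna, below 0 with TMM, were 0.043 and 0.034 with library totals. Of the 4440 genes, 2038 were also called with DESeq2. With DESeq2 46 of 51 named values kept their direction and call, and 51 of 51 did without the highest doublet scores. Genes were named partly because their direction held with DESeq2, so the 46 of 51 is no independent check. The 54 genotype genes became 4 with DESeq2 and 3 without the highest doublet scores, and with library totals 53 (43 of them among the 54), with a split of 60.4% higher and 39.6% lower against 40.7% and 59.3%. The mean log2 ratio of the shares, runx1-/- over WT, was -1.94 to -1.15 when 1 age was left out, -1.13 at 5 marker UMIs and 0.11 after thinning to 1000 UMIs, which left 2 such barcodes, both of WT at 16 dpf. The cause of these changes was not tested. Sums at 5 marker UMIs or 20 barcodes per sum, genotype fits without 1 library, and the rag share with 5 marker UMIs, thinned or without an age could not be fitted, nor could the rag-positive test. No paired analysis was possible because each group is 1 library and the labels give no replicate numbers to pair genotypes beyond age. The comparison with other barcodes had library as its block throughout. Depth limits detection of single transcripts such as rag2 and cd4-1.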
